A study of Sus scrofa with 15 samples.

Results

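The genes described here carry the symbols of proteins of the cytosolic ribosome and of their paralogs. They were taken by symbol from the array annotation: RPL or RPS followed by a number, the stalk genes RPLP0, RPLP1 and RPLP2, and RPSA, without the RPS6K kinases. The rule found 63 genes among the 6765 that had a probe set with 1 symbol. Of these, 31 encode proteins of the large subunit, 24 of the small subunit and 3 of the stalk, and 5 are paralogs whose symbol carries an added L (RPL7L1, RPL22L1, RPL26L1, RPL36AL and RPS27L). A symbol alone does not place a product in the mature ribosome, which was not measured for any paralog, RPL7L1 among them. The 63 genes had 95 probe sets, and the brightest probe set over the 15 arrays stood for each of the 24 genes that had several.

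The samples were granulosa cells, the hormone-producing cells around the oocyte, from pig ovarian follicles. RNA of the cells at day 0, at days 1, 2 and 4 of culture, when the labels call them dedifferentiating, and at day 7, when they are called dedifferentiated (DFOG) and had reached semiconfluence, was hybridised to Affymetrix porcine arrays, 3 arrays a day. The labels call the replicates biological without naming animals or cultures, so every p-value rests on how far these arrays of a day lay apart, a spread that may be technical. RNA was taken from whole cultures, in which fewer cells of a type and less RNA per cell cannot be told apart.

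A ribosome is built from ribosomal RNA and a fixed set of proteins, nearly all present in a single copy per particle. Messenger RNAs of these proteins are among the most abundant in a cell and share a pyrimidine tract at their start, through which growth signals set their translation. Many paralogs arose by gene duplication, and some can take the place of their namesake in the ribosome.

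Values are log2 intensities as deposited, and changes are differences of day means on that scale. A gene was called higher or lower when limma's Benjamini-Hochberg adjusted p, over all 23999 probe sets tested, was under 0.05. No minimum change was set, and with 3 arrays a day the precision of each value is limited. The 4 comparisons with day 0 share the day 0 arrays, so their counts are not independent of each other.

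Same-day arrays correlated between 0.963 and 0.996 over all probe sets, and on each day replicate 1 stood apart: pairs with it reached 0.982 at most, and replicates 2 and 3 correlated at 0.988 or more. With replicates 2 and 3 only, 6, 6, 7 and 9 of the genes described here were called higher on days 1, 2, 4 and 7, and 1, 0, 0 and 1 lower, close to the counts with all arrays below. Of 12 measured granulosa markers, 8 were lower on day 7 than on day 0 and 0 were higher (0 also at an unadjusted p under 0.05 in limma). Of 8 measured theca and stroma markers, 5 were higher on day 7 (DCN, LUM, COL1A2, ACTA2 and TAGLN) and 1 was lower. Their summed level went from 9.66 to 10.20 on day 0 to 15.16 to 15.23 on day 7. The theca genes of the list did not share this rise. INSL3 was the 1 called lower (mean 8.03 on day 0 and 5.67 on day 7), and CYP17A1 was at 4.99 and 5.29. Of 6 genes of dividing cells, 5 were called lower on day 1 and 6 on day 2, and 5 were called higher again from day 2 to day 4 (median 1.81). Macrophage markers were at or below the lower quartile of the arrays for 4 of 5 genes on day 0, and lymphocyte markers for 4 of 6. The part of cell makeup or cell division in the results below was not tested.

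Nearly all of the ribosomal protein genes were among the brightest probe sets at every time. On each array 52 to 54 of the 63 lay above that array's 99th percentile, which ran from 12.25 to 12.62. The mean over the 15 arrays was at least 13 for 49 genes and from 9 to 13 for 11. The other 3, RPL26, RPL30 and RPS15A, had probe sets with means under 6, close to the lower quartile of all probe sets on the arrays (4.41 to 4.68). RPS15A ran from 4.10 to 4.66 over the arrays, RPL30 from 4.02 to 5.36 and RPL26 from 4.57 to 5.86, and none of them was called in any comparison with day 0. With replicate number as a block, RPL26 was called on day 1 (change 0.56, limma adjusted p = 0.0184, against 0.136 without it). Levels of different genes are not set against each other, since each probe set has its own response.

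In the deposited values the brightest probe set of each gene mostly changed little over the culture. The range of the 5 day means had a median of 0.23 over the 63 genes against 0.60 over all probe sets, and it was under 0.5 for 55 genes (87.3%) against 42.0% of all probe sets. Only RPL7L1, RPS27L and RPL22L1, all paralogs, had a range of 1 or more, which is 4.76% of the genes against 27.3% of all probe sets. The spread within a day was also narrower, with a median SD of 0.11 against 0.25. Brightness alone was compared by level: the 49 genes with a mean of at least 13 had a median range of 0.23 and 0 of them reached 1, while the 87 other probe sets that bright had a median range of 0.36 and 13 of them (14.9%) reached 1. Limma's F test over the time course called 6 of the 63 genes, against 35.9% of all probe sets. Array maxima ran from 14.58 to 14.95, so most of these probe sets lay near the top of the scale. RPL7L1, RPS27L and RPL22L1 lay lower, with means of 11.26, 11.50 and 12.11. Some dimmer probe sets of other genes moved more, as given below. The part of a narrower response near the top of the scale was not tested.

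**Figure D1:**
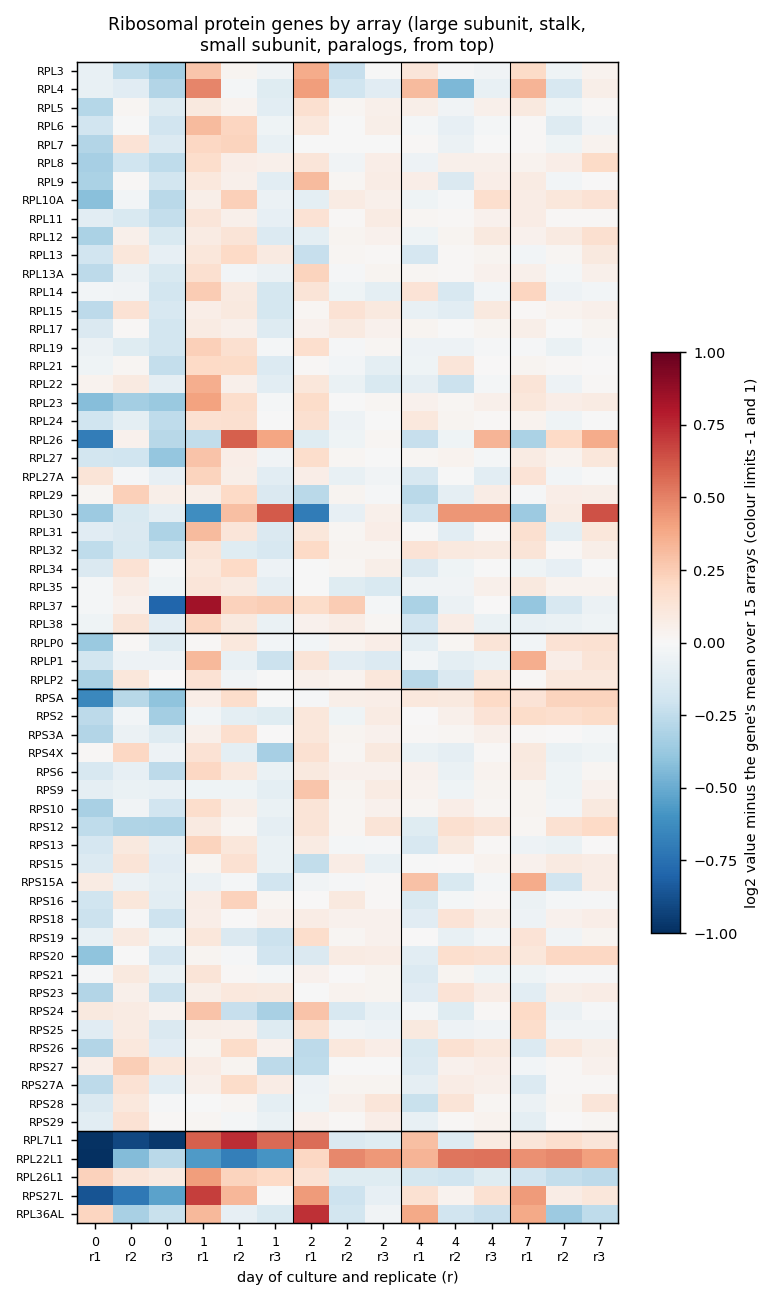
Log2 value of each of the 63 genes (lines) on each of the 15 arrays (columns, day and replicate), minus the gene's own mean over the arrays, with colour limits of -1 and 1. Most cells are pale, day 0 replicates 1 and 3 are mostly blue, and the strong colours lie mostly in the paralogs, RPL26L1 aside, and in RPL37 and the dim RPL26 and RPL30; the lower level on day 0 turns round under cyclic loess normalization.

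On day 1, 7 of the 63 genes were called higher (background 13.6% of all probe sets) and 0 lower (background 11.4%; 0 also at an unadjusted p under 0.05). On day 2, 7 were called higher (14.6%) and 0 lower (11.5%; 0 unadjusted). On day 4, 7 were called higher (16.7%) and 0 lower (14.0%; 1 unadjusted), and the 1 gene called lower with replicate number as a block was RPL26L1. On day 7, 9 were called higher (16.4%) and 1, RPL26L1, lower (14.9%). The shares called higher were 11.1% on days 1, 2 and 4 and 14.3% on day 7, so each was close to or under the background. Single arrays moved these counts: 4 were called higher on day 1 without day 0 replicate 3, 4 on day 2 without day 2 replicate 1, 4 on day 4 without day 4 replicate 3 and 5 on day 7 without day 7 replicate 3. Without day 2 replicate 1, 1 gene was called lower on day 4.

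From one sampled day to the next, few genes moved. Between days 1 and 2, RPL22L1 was the 1 gene called higher (background 3.62%), and 0 were called lower (2.47%; 2 at an unadjusted p under 0.05; 1 in the fit without day 2 replicate 1). Between days 2 and 4, 0 genes were called higher (background 3.03%) or lower (1.15%), and between days 4 and 7 again 0 higher (0.0458%) or lower (0.0167%), with 0 in all 4 cases at an unadjusted p under 0.05 in limma.

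Groups of arrays that did not overlap were counted as a description that needs no model. All 3 later arrays lay above all 3 of day 0 for 16 genes on day 1 (background 20.7%), 22 on day 2 (21.1%), 20 on day 4 (21.1%) and 22 on day 7 (23.0%). All 3 lay below day 0 for 0 genes on day 1 (background 16.3%), 1 on day 2 (16.2%), 3 on day 4 (21.2%) and 2 on day 7 (23.5%). RPS27 was below day 0 without overlap on days 2, 4 and 7, though by -0.23 at most and with limma adjusted p of 0.234 to 0.495.

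Between day 0 and culture the genes carried a small common offset, whose direction rests on how the arrays are scaled. In the deposited values the median change of the 63 genes was 0.17 on day 1, 0.18 on day 2, 0.12 on day 4 and 0.13 on day 7, while the median of all probe sets was between -0.06 and 0.00. Without day 0 replicate 1 the medians were 0.11, 0.10, 0.09 and 0.12, without replicate 2 they were 0.22, 0.22, 0.19 and 0.21, and without replicate 3 they were 0.16, 0.15, 0.07 and 0.10. The day mean was lowest on day 0 for 44 of the 63 genes. After a second quantile normalization the medians were 0.05, 0.01, -0.06 and -0.04, and 22 genes were lowest on day 0. After cyclic loess, which aligns arrays along the whole intensity range, they were -0.11, -0.21, -0.23 and -0.22. Only 7 genes were then lowest and 46 highest on day 0, with 4, 15, 18 and 16 genes called lower on days 1, 2, 4 and 7. Shifting the arrays to the same median left 40 genes lowest on day 0. The direction of the genes as a group was thus not settled by these arrays.

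**Figure D2:**
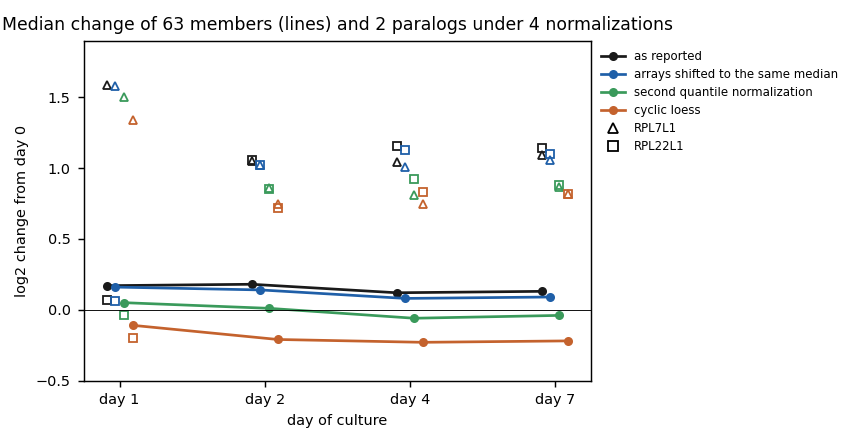
Median log2 change from day 0 of the 63 genes (lines) on days 1, 2, 4 and 7, under the deposited values and 3 other normalizations, with RPL7L1 (triangles) and RPL22L1 (squares). The median lies above 0 in the deposited values and below 0 under cyclic loess, while RPL7L1 stays at 0.75 or more on every day and RPL22L1 at 0.72 or more from day 2.

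The offset was uneven within days too. Each array's level was taken as the median over the 63 genes of the value minus the gene's own mean. On day 0 it was -0.19, 0.01 and -0.15 in replicates 1, 2 and 3. On day 1 it was 0.12, 0.08 and -0.07, on day 2 0.11, 0.01 and 0.03, on day 4 -0.03, 0.00 and 0.03, and on day 7 0.04, 0.00 and 0.04. Day 0 replicate 2 thus lay with the cultured cells, and day 1 replicate 3 lay below the other arrays of its day. Of the 63 genes, 37 were lowest on replicate 1 and 46 highest on replicate 2 among the day 0 arrays, and 54 were lowest on replicate 3 among the day 1 arrays. The pooled SD of the array level within days was 0.071. The difference between the 3′ and 5′ actin control probe sets, a measure of RNA or label length, spanned 0.78 to 1.32 on day 0 and -0.02 to 0.90 on day 1. For day 2 the span was 0.09 to 0.67, for day 4 it was 0.30 to 1.43, and day 7 had 0.52 to 0.90. Its part in the offset was not tested.

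**Figure D3:**
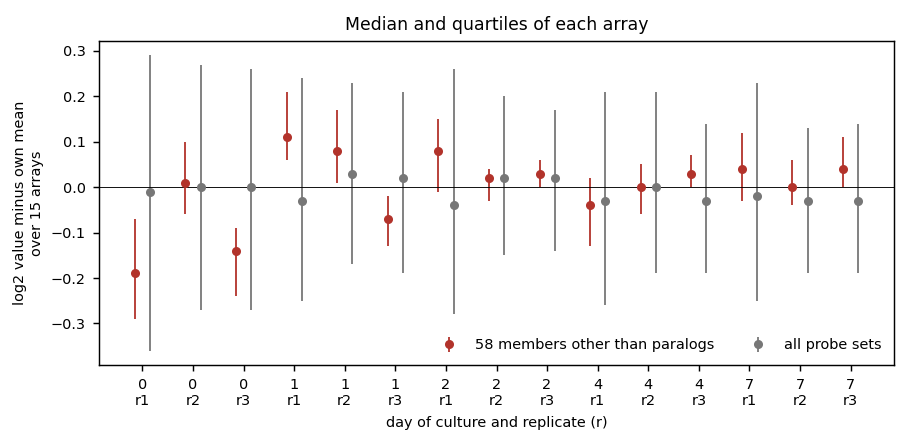
Median (point) and quartiles (bars) over 58 ribosomal protein genes other than the paralogs (red) and over all probe sets (grey) of the log2 value minus each gene's own mean, on each array by day and replicate. The red medians run from -0.19 on day 0 replicate 1 to 0.11 on day 1 replicate 1, and their quartiles are narrower than those of all probe sets on every array; the low level of day 0 does not hold under a second quantile normalization or cyclic loess.

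Coordination was described by how much of the genes' variation their average profile held, with each gene scaled to the same variance. The average profile of the 63 genes held 35.7% of it, and that of the 6765 genes with 1 symbol 0.421%. These shares cannot be set side by side, since the share shrinks with more genes and opposite changes cancel. No set of equal size or brightness was compared. Within days, after the day means were taken out, the share of the 63 genes was still 35.6%. In the deposited values they thus moved together between replicates about as much as between days. Over all arrays their share was 29.3% after the arrays were shifted to the same median. It was 13% with a second quantile normalization and 35.2% under cyclic loess. Within days these 3 other normalizations gave 27.9%, 9.80% and 17.6%. No test is attached to these shares, since genes of an array share its scaling.

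Among the 31 genes of the large subunit, 4, 2, 2 and 3 were called higher on days 1, 2, 4 and 7 and 0 lower on each (0 also at an unadjusted p under 0.05 in limma). The shares higher, 12.9%, 6.45%, 6.45% and 9.68%, lay under the backgrounds of 13.6%, 14.6%, 16.7% and 16.4%. RPL23, a protein of the subunit interface that can bind MDM2, was among them on every day. It measured 12.62, 12.71 and 12.68 on day 0, 13.45, 13.22 and 13.03 on day 1 and 13.16, 13.11 and 13.13 on day 7. All later arrays lay above day 0, by 0.57 on day 1 (SE 0.12, limma adjusted p = 0.00335) and 0.47 on day 7 (SE 0.12, adjusted p = 0.00929). The day 1 call was kept under each of the 3 other normalizations, and those of days 2, 4 and 7 were lost under a second quantile normalization and under cyclic loess (day 7 change 0.24 and 0.11, adjusted p = 0.0968 and 0.416).

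RPL37 was called on day 1 alone, with a change of 0.70 (SE 0.23, limma adjusted p = 0.0359). Its arrays read 9.66, 9.72 and 8.88 on day 0 and 10.52, 9.91 and 9.92 on day 1. The groups did not overlap, but replicate 3 of day 0 was low and replicate 1 of day 1 was high. The call was lost without either of those arrays, with replicates 2 and 3 only, under a second quantile normalization (0.57, adjusted p = 0.0848) and under cyclic loess (0.49, adjusted p = 0.138).

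RPL8, a protein of the peptidyl transferase region, was called on days 1, 2 and 7 with changes of 0.36, 0.31 and 0.36. RPL27 was called on days 1 and 7 (0.36 and 0.33), and RPL32 on day 4 (0.32). These 3 fell outside the rule for named genes and are given after their values were seen, because they complete the count. None of the calls of RPL8, RPL27 and RPL32 was kept under cyclic loess or a second quantile normalization. Under cyclic loess the sign turned for RPL8 on days 2 and 7 (-0.07 and -0.01), RPL27 on day 7 (-0.03) and RPL32 on day 4 (-0.05).

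RPL5 and RPL11, which join 5S ribosomal RNA in a particle that can bind MDM2, were not called. RPL5 measured 13.15, 13.45 and 13.30 on day 0 and 13.53, 13.39 and 13.44 on day 7, and these groups overlap. RPL11 measured 13.58, 13.54 and 13.45 on day 0 and 13.76, 13.70 and 13.70 on day 7, with all later arrays above day 0. The change on day 7 was 0.15 for RPL5 (95% interval -0.10 to 0.40, limma adjusted p = 0.366). For RPL11 it was 0.20 (95% interval -0.03 to 0.42, adjusted p = 0.178). RPL13A, often used as a reference gene in quantitative PCR, changed by 0.18 on day 7 (95% interval -0.07 to 0.43, adjusted p = 0.264).

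The stalk proteins RPLP0, RPLP1 and RPLP2 recruit translation factors to the large subunit. None of the 3 was called in any comparison with day 0 (0 also at an unadjusted p under 0.05 in limma). RPLP0, another common reference gene, measured 13.50, 13.88 and 13.74 on day 0 and 13.84, 14.01 and 14.02 on day 7. The groups overlap through day 0 replicate 2, and the change of 0.25 had a 95% interval of -0.02 to 0.52. RPLP1 went from 12.46, 12.60 and 12.60 on day 0 to 13.01, 12.71 and 12.78 on day 7 without overlap (0.28, 95% interval -0.04 to 0.60, adjusted p = 0.185). RPLP2 changed by 0.14 on day 7 (95% interval -0.16 to 0.44, adjusted p = 0.492).

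Among the 24 genes of the small subunit, 1, 2, 2 and 3 were called higher on days 1, 2, 4 and 7, and 0 were called lower (0 also at an unadjusted p under 0.05 in limma). The shares higher were 4.17%, 8.33%, 8.33% and 12.5%, again under the background on each day. RPSA, a small subunit protein also known as the laminin receptor, rose in the deposited values and stayed up. It read 13.14, 13.51 and 13.38 on day 0, 13.85, 13.96 and 13.78 on day 1, 13.77, 13.84 and 13.85 on day 2, 13.89, 13.88 and 13.98 on day 4 and 13.92, 14.01 and 14.01 on day 7. Every cultured array lay above every day 0 array. The change was 0.52 on day 1 (SE 0.12, limma adjusted p = 0.00488) and 0.64 on day 7 (SE 0.12, adjusted p = 0.00089), a ratio of 1.55. Under a second quantile normalization all 4 calls were kept (0.46 on day 7), and under cyclic loess all 4 were lost (0.26 on day 7, adjusted p = 0.139).

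RPS12 was called on days 2, 4 and 7 (0.38, 0.34 and 0.41) and RPS2 on day 7 (0.39). Both fell outside the rule for named genes. All 4 calls were lost under cyclic loess and under a second quantile normalization. The changes under cyclic loess turned below 0 for RPS12 on day 2 (-0.02) and day 4 (-0.03), and on day 7 they were 0.03 for RPS12 and 0.02 for RPS2.

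Most of the small subunit stayed within narrow bounds. RPS6, whose phosphorylation follows growth signals, measured 13.26, 13.34 and 13.16 on day 0 and 13.51, 13.38 and 13.44 on day 7. The groups do not overlap, and the change of 0.19 had a 95% interval of -0.05 to 0.43. RPS19, altered in Diamond-Blackfan anaemia, read 13.70, 13.86 and 13.73 on day 0 and 13.91, 13.74 and 13.80 on day 7, with overlap (0.05, 95% interval -0.20 to 0.31).

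RPS18, RPS29 and RPS26 had the highest means of the 63 probe sets, and their day 7 changes were 0.16 (95% interval -0.08 to 0.40), -0.04 (-0.28 to 0.19) and 0.11 (-0.21 to 0.43). The X-linked RPS4X changed by -0.06 (95% interval -0.35 to 0.22). RPS27A, made as a fusion with ubiquitin, changed by 0.04 (95% interval -0.22 to 0.31). FAU, the other measured ribosomal protein made with a ubiquitin-like part, was at 13.11 ± 0.10 (SD, n = 3) on day 0 and 13.13 ± 0.02 on day 7 (limma adjusted p = 0.90). For 41, 43, 44 and 40 of the 63 genes the whole 95% interval of the change on days 1, 2, 4 and 7 lay within 0.5 of 0 in the deposited values.

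RPL7L1, RPL22L1 and RPS27L, 3 of the 5 paralogs, had the widest ranges of day means among the 63 genes (1.59, 1.16 and 1.05), ahead of RPL37 (0.70) and RPSA (0.64). Of the 5, 2 were called higher on day 1 and 3 on each of days 2, 4 and 7, and without them the counts of genes called higher were 5, 4, 4 and 6 of 58. RPL7L1, a relative of RPL7, measured 10.27, 10.35 and 10.30 on day 0, 11.86, 12.00 and 11.83 on day 1, 11.82, 11.12 and 11.14 on day 2, 11.56, 11.13 and 11.35 on day 4 and 11.38, 11.43 and 11.38 on day 7. The cultured arrays all lay above day 0, and day 1 was highest, with day 2 replicate 1 close to it. The change was 1.59 on day 1 (SE 0.17, limma adjusted p = 1.71e-05), a ratio of 3.02, and 1.09 on day 7 (SE 0.17, adjusted p = 0.000247), a ratio of 2.14. From day 1 to day 2 the change was -0.54, which did not pass the threshold (adjusted p = 0.0935). The 4 calls against day 0 were kept under the 3 other normalizations and without any 1 array.

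RPS27L, a relative of RPS27 known as a target of p53, measured 10.63, 10.78 and 10.96 on day 0, 12.19, 11.83 and 11.49 on day 1, 11.92, 11.29 and 11.41 on day 2, 11.65, 11.53 and 11.65 on day 4 and 11.92, 11.57 and 11.61 on day 7. No cultured array overlapped day 0, and replicate 1 was the highest on days 1, 2 and 7. The change was 1.05 on day 1 (SE 0.20, limma adjusted p = 0.00134) and 0.91 on day 7 (SE 0.20, adjusted p = 0.00282). The day 2 change of 0.75 lost its call without day 2 replicate 1 and under cyclic loess (0.44, adjusted p = 0.0611).

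RPL22L1, a relative of RPL22, rose later. It read 10.76, 11.67 and 11.84 on day 0, 11.54, 11.42 and 11.52 on day 1, 12.31, 12.59 and 12.54 on day 2, 12.45, 12.64 and 12.65 on day 4 and 12.56, 12.59 and 12.52 on day 7. Day 1 lay within the span of day 0, in which replicate 1 was low, and every array from day 2 on lay above both. The change was 0.07 on day 1 (95% interval -0.39 to 0.53, limma adjusted p = 0.869), 1.06 on day 2 (SE 0.21, adjusted p = 0.00206) and 1.14 on day 7 (SE 0.21, adjusted p = 0.00101), a ratio of 2.20. Its step from day 1 to day 2 was 0.99 (SE 0.21, adjusted p = 0.0148). That step was kept under the 3 other normalizations and lost when replicate 2 of day 1 or either of replicates 2 and 3 of day 2 was left out, with adjusted p between 0.000268 and 0.0692 over all alternatives. The calls against day 0 were kept under all of them.

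RPL26L1, a close relative of RPL26, went the other way. It measured 11.30, 11.19 and 11.16 on day 0, 11.49, 11.29 and 11.27 on day 1, 11.21, 10.95 and 10.95 on day 2, 10.89, 10.87 and 10.95 on day 4 and 10.88, 10.83 and 10.81 on day 7. Days 4 and 7 lay below day 0 without overlap. The change on day 7 was -0.38 (SE 0.12, limma adjusted p = 0.0248), a ratio of 0.771, and it was -0.61 and -0.64 under a second quantile normalization and cyclic loess. The call was lost when day 0 replicate 1 was left out, or either of replicates 2 and 3 of day 7, and in a fit of the 6 arrays alone. The day 4 change of -0.31 had an adjusted p of 0.059, and 0.0341 with replicate number as a block. RPL36AL, a close relative of RPL36A, was not called. It read 12.02, 11.48 and 11.58 on day 0 and 12.18, 11.44 and 11.55 on day 7, with replicate 1 highest on both days.

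**Figure D4:**
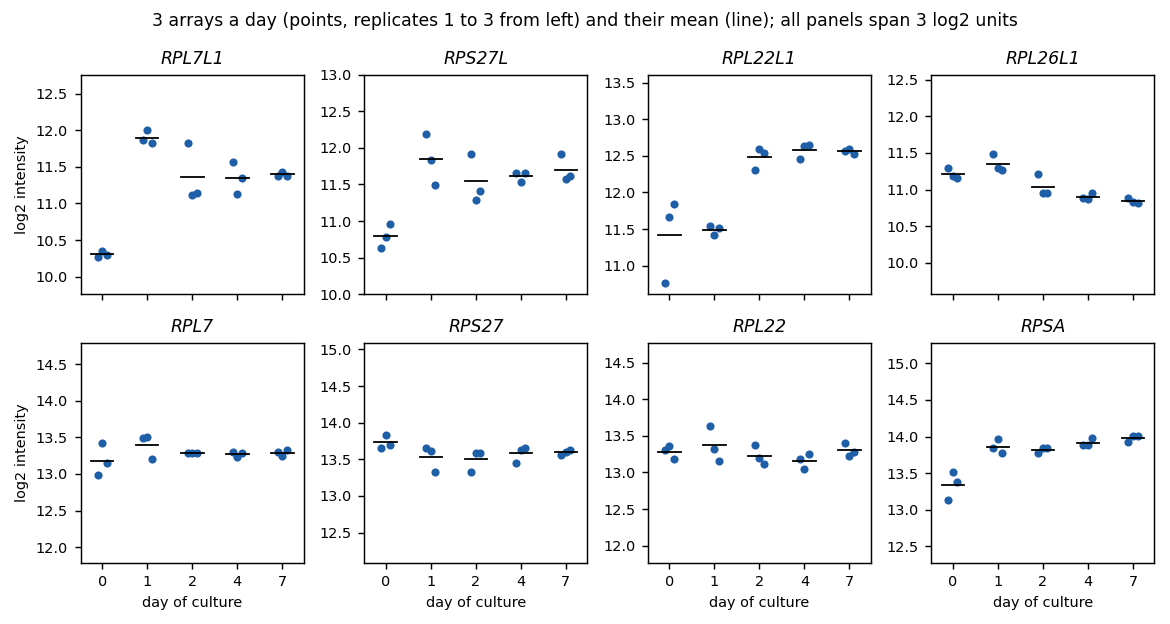
Log2 intensity of 4 paralogs (upper panels) and of RPL7, RPS27, RPL22 and RPSA (lower panels) on days 0, 1, 2, 4 and 7, with the 3 arrays of a day as points and their mean as a line, each panel spanning 3 log2 units. RPL7L1 and RPS27L step up between day 0 and day 1, RPL22L1 between day 1 and day 2, RPL26L1 drifts down to 10.84 on day 7, and the namesakes below stay nearly level; the step of RPSA was not called under cyclic loess.

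The 3 paralogs that rose were also set against their namesakes within the same arrays, which takes out a shift common to all intensities. Scaling that depends on intensity is not taken out, since the probe sets of a pair lie at different intensities. RPL26L1 and RPL36AL were not compared in this way. The difference between RPL7L1 and RPL7 grew by 1.37 on day 1 and 0.99 on day 7. That between RPS27L and RPS27 grew by 1.24 and 1.04, and that between RPL22L1 and RPL22 changed by -0.02 on day 1 and grew by 1.11 on day 2 and 1.12 on day 7. In 11 of these 12 comparisons the 3 later arrays lay above the 3 of day 0 and the exact two-sided permutation p was 0.1, the smallest that 3 arrays against 3 allow. The adjusted value over the 12 was 0.109, so the design cannot reach 0.05 here. The pairs were taken because these same arrays showed the paralogs rising. Neither the 11 comparisons without overlap nor these p-values are therefore support for the rise. The brightest probe sets of the namesakes RPL7, RPS27 and RPL22, used for the pairs, were not called. Their day 7 changes were 0.11, -0.13 and 0.02 (limma adjusted p = 0.594, 0.495 and 0.936). A second RPS27 probe set was called lower on each day (-1.18 on day 1 and -1.47 on day 7), and it was not set against RPS27L.

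Second probe sets of a gene did not always follow the brightest one. All probe sets of a gene changed in the same direction for 19 of the 24 genes with several on day 1 and for 17 on day 7, and in 0 genes were 2 probe sets called in opposite directions. Of the 32 further probe sets, 4 were called higher and 4 lower on day 1 (13.6% and 11.4% of all probe sets), and 1 higher and 4 lower on day 7 (16.4% and 14.9%). A second RPS27 probe set, with a mean of 9.90, was lower by 1.18 on day 1 (change -1.18, limma adjusted p = 0.00377) and changed by -1.47 on day 7. A second RPL38 probe set (mean 9.51) changed by -0.86 and -0.60, and a second RPS25 probe set (mean 7.46) by -0.76 and -0.89, all called. A second RPL23 probe set (mean 9.25) changed by 1.73 on day 1 (adjusted p = 2.89e-05) and by 0.12 on day 7 (adjusted p = 0.715). The others called on day 1 were second probe sets of RPS27A (0.60), RPL35 (0.51) and RPL9 (-0.62) and a further one of RPS18 (0.42). The brightest probe sets of RPS27, RPL38 and RPS25 changed by -0.20, 0.09 and 0.05 on day 1 and were not called. When a gene's probe sets were averaged, 3 genes were called lower on each of days 1, 2, 4 and 7.

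Most genes of ribosome assembly were called higher on day 1, and fewer on the later days. Many assembly factors act in the nucleolus on ribosomal RNA and on the early particles. Of 55 listed, 43 were measured, and 32, 17, 24 and 19 of them were called higher on days 1, 2, 4 and 7. The shares were 74.4%, 39.5%, 55.8% and 44.2%, against 13.6%, 14.6%, 16.7% and 16.4% of all probe sets. None of the 43 was called lower in limma (0, 0, 2 and 1 at an unadjusted p under 0.05). Of all probe sets 11.4%, 11.5%, 14.0% and 14.9% were called lower. Their median change was 1.02 on day 1, 0.48 on day 2, 0.58 on day 4 and 0.49 on day 7, and 39 of the 43 were highest on day 1. From day 1 to day 2, 10 were called lower (23.3%, background 2.47%, median -0.53), and 18 with replicate number as a block. Without day 2 replicate 1 the count called lower was 23, and it was 3 without day 1 replicate 2 or day 2 replicate 2 and 4 without day 1 replicate 3 or day 2 replicate 3. The 17 called higher on day 2 became 11, 11 and 10 without day 0 replicates 1, 2 and 3 and 7 without day 2 replicate 1. The 19 on day 7 became 11 without day 0 replicate 3 or day 7 replicate 2 and 12 without day 7 replicate 3. Under cyclic loess 8 were called higher on day 2 and 11 on day 7.

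GNL3 (nucleostemin) read 7.51, 7.87 and 7.79 on day 0, 10.17, 10.49 and 10.46 on day 1 and 9.12, 9.35 and 9.27 on day 7. All cultured arrays lay above day 0, by 2.65 on day 1 (SE 0.25, limma adjusted p = 4.83e-06) and 1.53 on day 7 (SE 0.25, adjusted p = 0.00031). DDX21, an RNA helicase, rose by 1.51 on day 1 (SE 0.22, adjusted p = 0.000173) and 1.14 on day 7 (SE 0.22, adjusted p = 0.00116). The rRNA methyltransferase NOP2 rose by 1.41 (SE 0.15, adjusted p = 1.1e-05) and the pseudouridine synthase DKC1 by 1.26 on day 1 (SE 0.16, adjusted p = 7.2e-05). Both were called lower from day 1 to day 2 (-1.04 and -0.85), and on day 7 their changes from day 0 were 0.46 and 0.51. BOP1, which acts in maturation of the large subunit, rose by 1.09 on day 7 (SE 0.30), while NOB1 (-0.49), NOC2L (-0.46) and IMP4 (-0.28) were below their day 0 means without being called. The abundant nucleolar protein NPM1 changed by 0.38 on day 1 and was not called (adjusted p = 0.232).

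RNA polymerase I makes the precursor of ribosomal RNA. Of 22 symbols listed for it and its factors, 11 were measured. Some symbols were older names of another on the list, and the POLR2 symbols on it stand for subunits shared with other polymerases. Of these, 4, 2, 3 and 2 were called higher on days 1, 2, 4 and 7 and 0 lower (0 also at an unadjusted p under 0.05 in limma). The shares higher were 36.4%, 18.2%, 27.3% and 18.2% against 13.6%, 14.6%, 16.7% and 16.4% of all probe sets, so days 2 and 7 lay near the background. POLR1B, its second largest subunit, rose by 1.53 on day 1 (SE 0.16) and by 1.25 on day 7 (SE 0.16, adjusted p = 3.96e-05).

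A further list held translation factors and other genes whose messages carry the pyrimidine tract of ribosomal proteins. By adjusted p, the share called lower was well above the background only on day 4, but by unadjusted p days 4 and 7 were alike. Of 21 listed symbols, with RACK1 also under its older symbol GNB2L1, 17 were measured. On days 1, 2, 4 and 7, 0, 0, 0 and 1 were called higher (1, 1, 1 and 3 at an unadjusted p under 0.05 in limma). Called lower were 2, 2, 6 and 3 (3, 3, 7 and 7 unadjusted). Between days 4 and 7, 0 were called higher or lower. The shares called lower were 11.8%, 11.8%, 35.3% and 17.6%, against 11.4%, 11.5%, 14.0% and 14.9% of all probe sets. Days 1, 2 and 7 thus lay near the background. Of all probe sets 13.6%, 14.6%, 16.7% and 16.4% were called higher. The median change of the list was -0.12 on days 4 and 7, and the list was not run under the other normalizations. PABPC1, the poly(A)-binding protein, fell from 13.34, 13.69 and 13.52 on day 0 to 12.78, 12.81 and 12.83 on day 7 (change -0.71, SE 0.16, adjusted p = 0.00441), with no overlap. EIF3K, a subunit of initiation factor eIF3, fell by 0.52 on day 7 (SE 0.17, adjusted p = 0.0321), and EIF3M, another subunit, rose by 0.80 (SE 0.27, adjusted p = 0.0392).

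MYC, a transcription factor known to act on ribosomal protein and assembly genes, measured 5.97, 6.39 and 6.66 on day 0, 10.06, 9.63 and 9.91 on day 1 and 9.40, 9.46 and 9.49 on day 7. Every cultured array was far above day 0. The change was 3.53 on day 1 (SE 0.18, limma adjusted p = 3.18e-08) and 3.11 on day 7 (SE 0.18, adjusted p = 2.1e-08), and it was called under every alternative run. Of the 11 measured genes among 24 listed regulators of ribosomal protein messages, 5, 3, 6 and 6 were called higher on days 1, 2, 4 and 7 and 1, 2, 0 and 0 lower (unadjusted, 1 lower on day 4 and 2 on day 7). The shares higher were 45.5%, 27.3%, 54.5% and 54.5% against 13.6%, 14.6%, 16.7% and 16.4% of all probe sets. The shares lower were 9.09% and 18.2% on days 1 and 2, against 11.4% and 11.5%. Others among them were RPS6KA3, with 1.47 on day 7 (SE 0.19, adjusted p = 3.58e-05), and RPS6KA1, with 1.13 (SE 0.26, adjusted p = 0.00409).

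**Figure D5:**
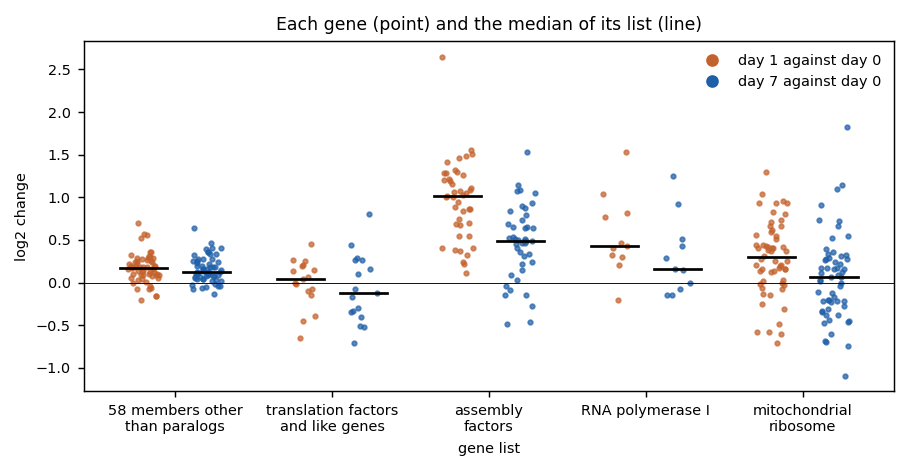
Log2 change on day 1 (orange) and day 7 (blue) against day 0 of each gene (points) and the list median (line), for 58 ribosomal protein genes other than the paralogs, 17 translation factors and like genes, 43 assembly factors, 11 genes of RNA polymerase I and 58 mitochondrial ribosomal proteins. The assembly factors lie highest on day 1 with a median of 1.02, while the ribosomal proteins stay near 0 with medians of 0.17 and 0.13 that fall below 0 under cyclic loess.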

How the data were processed

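Granulosa cell RNA of 15 samples was measured on Affymetrix porcine arrays with biotin-labelled target. The deposited values are log2 intensities that the submitters' processing notes credit to RMA (robust multi-array averaging). The sources used here do not give its version or settings. Values started at 2.29 and reached 14.95, and the medians of the arrays lay between 6.40 and 6.55. RMA aligns the distributions of arrays, so a change shared by many bright probe sets can be damped or turned. The deposited values still differed at the top, with 99th percentiles from 12.25 to 12.62. This percentile was lowest on day 0 replicate 3 (12.25), day 1 replicate 3 (12.27) and day 0 replicate 1 (12.34). The level of the 63 genes was also lowest on these arrays (-0.15, -0.07 and -0.19). The part of the upper tail in the offset was not tested. No genome build was used and no positions are given.

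Of the 23999 probe sets left after 124 controls, 10069 had 1 symbol, 198 several and 13732 none. Probe sets with several symbols, 8 of them with a ribosomal protein among them, were not used. RefSeq lists 20 further symbols that match the rule, and these had no probe set with 1 symbol and are not analysed here. All 63 genes matched the reference by gene ID.

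With limma 3.58.1 (R 4.3.3; lmFit, eBayes) a mean for each day was fitted over the 15 arrays, with Benjamini-Hochberg adjustment over all 23999 probe sets, and the fit was tested on simulated data. Tables and permutation tests were made with Python 3.11.15. Genes given in full were the 4 largest called rises and falls against day 0 on each day, the 2 largest between successive days, the 3 highest and 3 lowest means, and 17 measured of 21 fixed by name. Of the related lists, the 2 largest called rises and falls on day 7 were to be named. For assembly factors these were GNL3 and DDX21, and the other assembly factors named, RPS6KA1, MRPL40 and the further probe sets were chosen after their values were seen. The members and lists were chosen with earlier results of these data known, so counts over them carry no test.

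To check for pairing by replicate number, same-numbered arrays were correlated over probe sets after their day means were taken out. It was above 0.1 for every number in 6 of the 7 comparisons, and ran from 0.0609 to 0.333 between days 0 and 1. No label says that a number marks an animal or culture. The fit without a block is therefore given, with the blocked value where it changed a call. Alternatives were 3 other normalizations, a minimum change of 1, the dimmest 40% of probe sets left out, eBayes with trend and robust settings, the 6 arrays of a comparison alone, the block, the mean of a gene's probe sets, replicates 2 and 3 only, and each array left out in turn.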

Additional observations from a re-analysis of the deposited data

How the results depend on the processing

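The 22 calls of named ribosomal protein genes kept their sign under every alternative, and the 4 calls of RPL7L1 and the 3 of RPL22L1 against day 0 were kept under all. A second quantile normalization weakened 4 of the 22, cyclic loess 9, a minimum change of 1 14, and the 6 arrays alone 6. The cause of these shifts was not tested.

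The numbers called higher on days 1, 2, 4 and 7 were 4 on each day under a second quantile normalization and 3, 2, 3 and 3 under cyclic loess. The numbers called lower were 1, 2, 3 and 2, and 4, 15, 18 and 16. The median changes were 0.05, 0.01, -0.06 and -0.04, and -0.11, -0.21, -0.23 and -0.22. From day 1 to day 2 each of these 2 normalizations gave 2 lower, with a median of -0.14 under cyclic loess, where the time course called 17. The array level was 0.01 on day 0 under the quantile normalization. Under cyclic loess it was 0.16 on day 0, -0.06 on day 2, -0.08 on day 4 and -0.06 on day 7. Shifting arrays to the same median gave 1 lower on day 4.

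A minimum change of 1 left 2 higher on each day, 0 lower on day 7, 0 higher from day 1 to day 2, and 3 in the time course. The trend and robust settings gave 14, 11 and 11 higher on days 1, 2 and 4, 1 lower on day 4 and 11 in the time course. The 6 arrays alone gave 3, 3 and 4 higher on days 1, 2 and 4 and 0 lower on day 7, and have no time course. The mean of a gene's probe sets gave 3 lower on each of days 1, 2, 4 and 7 and 4 higher on day 4. Replicates 2 and 3 only gave 1 lower on day 1 and from day 1 to day 2, and a day 1 median of 0.08. With replicate number as a block, 1 was lower on day 4 (RPL26L1) and RPL26 was called higher on day 1, and no other call of a named gene changed.

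With 1 array left out in turn, the numbers higher ran from 4 to 8 on days 1 and 2, from 4 to 7 on day 4 and from 5 to 10 on day 7. From day 1 to day 2 they ran from 0 to 1. The numbers lower ran from 0 to 1 on days 4 and 7 and from day 1 to day 2, and stayed at 0 on days 1 and 2. The median changes on days 1, 2, 4 and 7 ran from 0.11 to 0.22, 0.10 to 0.22, 0.07 to 0.19 and 0.10 to 0.21. The time course called 5 to 7.

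The alternatives for assembly factors were chosen after seeing the data. The numbers higher on days 2 and 7 were 11 and 12 under the quantile normalization and 8 and 11 under cyclic loess. With a minimum change of 1 they were 2, 4 and 5 on days 2, 4 and 7, and the 6 arrays alone gave 9 on day 2. From day 1 to day 2 the numbers lower were 17 (quantile), 2 (minimum change), 2 (6 arrays), 18 (replicate block) and 33 (replicates 2 and 3). With 1 array left out, the numbers higher ran from 28 to 34, 7 to 20, 17 to 26 and 11 to 25 on days 1, 2, 4 and 7, and those lower from day 1 to day 2 from 3 to 23.

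Outside the named calls, 6 calls of RPL8, RPL27, RPL32 and RPS12 turned below 0 under cyclic loess, with values of -0.07 and -0.01 for RPL8, -0.03 for RPL27, -0.05 for RPL32 and -0.02 and -0.03 for RPS12. Signal over background limits RPL26, RPL30 and RPS15A, whose probe sets lay near the lower quartile of the arrays.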

Other observations

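The proteins of the mitochondrial ribosome are made by other nuclear genes. Of 58 measured genes, 14, 8, 10 and 9 were called higher on days 1, 2, 4 and 7. The shares higher were 24.1%, 13.8%, 17.2% and 15.5%, against 13.6%, 14.6%, 16.7% and 16.4% of all probe sets. Called lower were 3, 5, 7 and 7, or 5.17%, 8.62%, 12.1% and 12.1%, against 11.4%, 11.5%, 14.0% and 14.9%. Only the share higher on day 1 thus stood well above the background, and the shares lower lay under it. The median change was 0.29 on day 1 and 0.06 on day 7. MRPS34 rose by 1.82 on day 7 (SE 0.14, limma adjusted p = 3.73e-07), MRPS12 by 1.14 (SE 0.17) and MRPL40 by 1.10 (SE 0.14). MRPL10 changed by -0.74 (SE 0.20, adjusted p = 0.013) and MRPL39 by -0.70 (SE 0.19, adjusted p = 0.0109). From day 1 to day 2, 8 were called lower (13.8%, background 2.47%) and 0 higher (background 3.62%; 3 higher at an unadjusted p under 0.05).

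Among genes of ribosomal RNA synthesis, TWISTNB, a subunit of RNA polymerase I, rose by 0.77 on day 1 and 0.92 on day 7 (SE 0.14, limma adjusted p = 0.000167). The assembly factor NOB1, an endonuclease that trims small subunit RNA, rose by 1.20 on day 1 (SE 0.26, adjusted p = 0.00355) and changed by -1.37 from day 1 to day 2 (adjusted p = 0.00736). Its arrays read 8.28, 8.25 and 8.50 on day 0, 9.96, 9.39 and 9.27 on day 1 and 8.10, 7.64 and 7.81 on day 7, so that day 7 lay below day 0 without overlap (-0.49, adjusted p = 0.178). NOB1 was chosen after its values were seen. TWISTNB and POLR1B were the 2 genes of the RNA polymerase I list called higher on day 7.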
